A study of Arabidopsis thaliana with 12 samples.

Results

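The genes described here carry out or steer chlorophyll synthesis in Arabidopsis thaliana: HEMA1 (AT1G58290), GUN4 (AT3G59400), CHLH (AT5G13630, also called GUN5), CHLI1 (AT4G18480), CHLD (AT1G08520), CHLM (AT4G25080), CRD1 (AT3G56940), PORA (AT5G54190), PORB (AT4G27440) and PORC (AT1G03630). They were picked by locus identifier, 10 of the 32833 loci in the deposited tables, and all 10 were found. All 10 passed the filter on low values, at least 1 TPM (transcript abundance scaled to gene length and library total) in at least 3 libraries, along with 19922 loci in all. PORA passed it through the other groups, since its level was under 1 TPM in every Col-0 library under UV-B.

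Chlorophyll and heme share a route that starts from glutamate bound to its transfer RNA and runs through 5-aminolevulinic acid to protoporphyrin IX. Magnesium chelatase then commits protoporphyrin to chlorophyll, and a methyltransferase and a cyclase turn the product into protochlorophyllide. In flowering plants the next step, reduction of protochlorophyllide to chlorophyllide, needs light and is carried out by the POR enzymes. Free intermediates of the route are phototoxic, and the plant matches its steps to one another partly through transcript levels.

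The 12 libraries were made from whole seedlings 10 days old, grown with 16 h of light and 8 h of dark, in 4 groups of 3 biological replicates prepared separately from germination on. The groups were uvr8 seedlings under white light plus UV-B, Col-0 seedlings under white light plus UV-B, Col-0 seedlings in white light with the hormone abscisic acid (ABA, 50 µM) and mock-treated Col-0 seedlings in white light. Each treatment lasted 3 h, and UV-B was given at 5 µmol m-2 s-1. Col-0 is the standard laboratory accession, and uvr8 lacks a working UV-B receptor UVR8. The titles place the 6 UV-B libraries under UV-B, while their treatment entry allows for white light with or without it. The labels give neither the uvr8 allele nor any uvr8 library in white light, so a difference of the mutant that does not depend on UV-B cannot be told apart from one that does.

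UVR8 itself stood at 20.8, 23.6 and 21.1 TPM in uvr8 libraries, against 66.9, 73.8 and 71.1 TPM in Col-0 under UV-B. ELIP1, a light-stress gene, stood at 1.05 to 2.14 TPM in uvr8 under UV-B, against 1700 to 1771 TPM in Col-0 under UV-B, and RAB18, an ABA-response gene, reached 466 to 689 TPM with ABA and 12 to 15.1 TPM in white light. The ELIP1 level therefore checks the UV-B treatment of the Col-0 libraries and not that of the uvr8 ones. Root hair markers were nearly absent, with EXPA7 listed at 0 in all 12 libraries and COBL9 at no more than 0.15 TPM, although PYK10, a root and hypocotyl gene, stood at 190 to 446 TPM. TPM keeps no sequencing depth, so the depth behind each value is unknown and no counting interval can be given. In RNA from whole seedlings, fewer cells of a type and less RNA per cell cannot be told apart.

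In white light the 10 genes spanned a wide range of levels, which TPM, being per length, allows to be set side by side. PORB was highest at 601 ± 71.1 TPM and CRD1 followed at 436 ± 40.6 TPM (SD, n = 3 each, as throughout). CHLI1 came next at 227 ± 11.8 TPM, then CHLM at 137 ± 7.25 TPM and GUN4 at 111 ± 11 TPM. Below them CHLH (96.2 ± 13.7 TPM), CHLD (82.6 ± 7.52 TPM) and HEMA1 (81.8 ± 4.12 TPM) did not differ from one another beyond their spread. PORC stood at 64.5 ± 4.67 TPM, and PORA, known mainly from seedlings that have not yet seen light, was far below the rest at 6.04 ± 0.57 TPM. Under UV-B the order in Col-0 was another one: CRD1 led at 629.6 ± 13.5 TPM, PORB (281 ± 31.4 TPM), CHLH (271 ± 7.35 TPM) and CHLI1 (237 ± 22.3 TPM) lay close together, and GUN4 (213 ± 19.6 TPM) stood above HEMA1 (148 ± 5.04 TPM) and CHLM (133 ± 23.7 TPM). CHLD (78.2 ± 2.29 TPM), PORC (71.3 ± 6.22 TPM) and PORA (0.59 ± 0.20 TPM) closed that order.

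**Figure D1:**
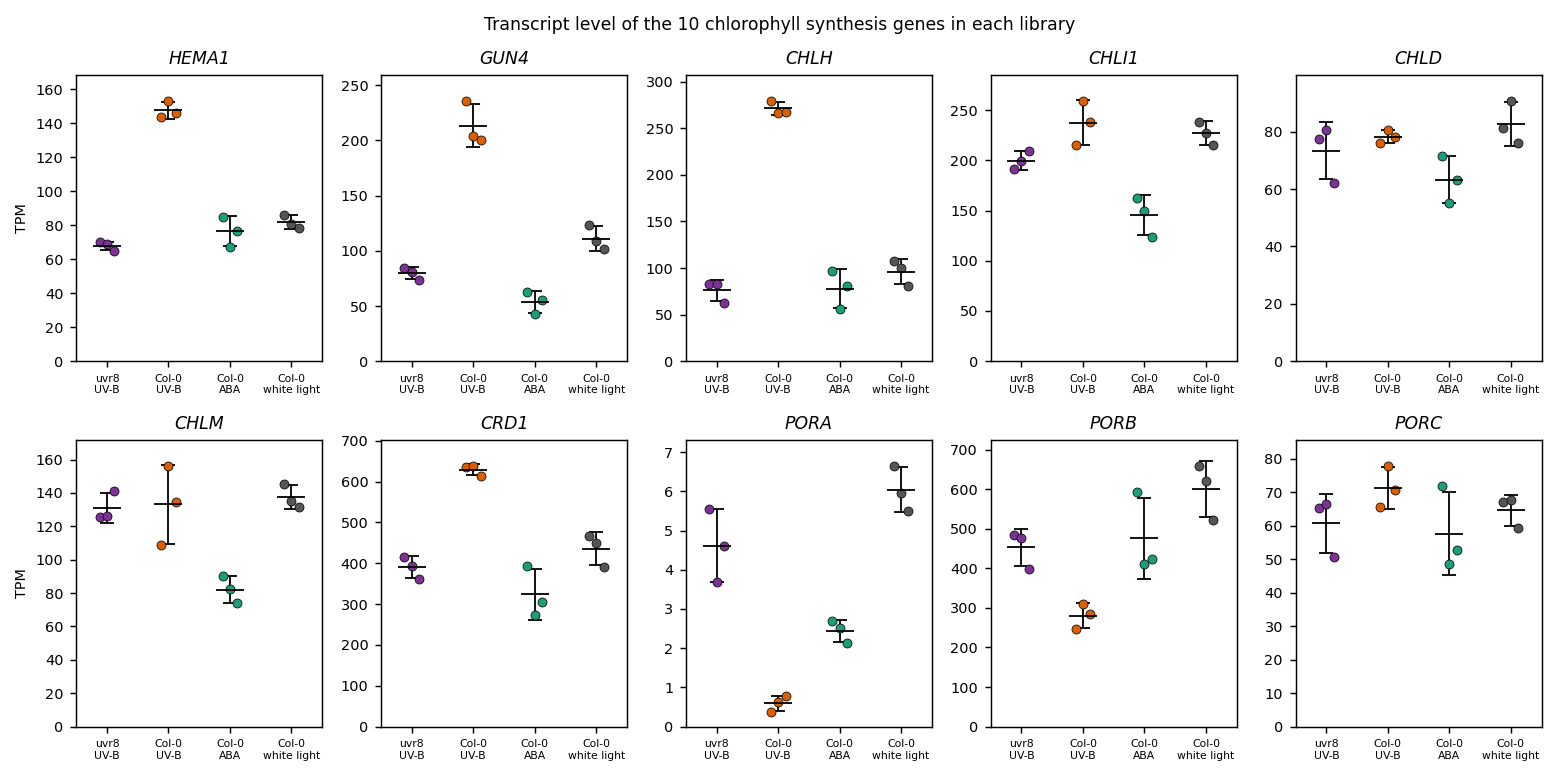
TPM of each gene (vertical axes from 0) in the 3 libraries of uvr8 under UV-B, Col-0 under UV-B, Col-0 with ABA and Col-0 in white light; points are libraries, horizontal bars the group mean and error bars the SD. HEMA1, GUN4, CHLH and CRD1 stand highest in Col-0 under UV-B, where PORA and PORB stand lowest, and for these genes the uvr8 mean under UV-B lies nearer to the white-light mean than the Col-0 mean under UV-B does.

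Under UV-B, Col-0 seedlings held more transcript of HEMA1, of GUN4 and the chelatase subunit CHLH, and of the cyclase subunit CRD1, and less of PORA and PORB. CHLH rose 2.82-fold, GUN4 1.92-fold, HEMA1 1.81-fold and CRD1 1.44-fold over white light, while PORA fell to 0.0976 and PORB to 0.467 of the white-light mean. CHLI1, CHLD, CHLM and PORC did not pass the test. With limma on log2(TPM + 1) and Benjamini-Hochberg adjustment over all genes tested, 4 of the 10 were higher and 2 lower at an adjusted p under 0.05, beside 40.1% of all genes called, 12.3% higher and 27.8% lower. The median change of the 10 was 0.10 on the log2 scale and that of all genes tested was -0.15. Scaling the libraries by a trimmed mean moved the genome-wide split to 3774 higher and 3438 lower, against 2451 higher and 5543 lower as deposited, and left the same 6 members called in the same directions. Relative to the median of all genes the changes were 1.65 for CHLH, 1.09 for GUN4, 1 for HEMA1, 0.69 for CRD1, -0.94 for PORB and -2 for PORA.

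Under UV-B, uvr8 seedlings held less CHLH, GUN4, HEMA1 and CRD1 transcript than Col-0 and more of PORA and PORB. CHLH stood at 0.28, GUN4 at 0.374, HEMA1 at 0.46 and CRD1 at 0.621 of the Col-0 mean, and PORA was 7.82-fold and PORB 1.62-fold higher in uvr8. Of the 10 genes, 2 were higher and 4 lower, beside 44% of all genes called, 32.8% higher and 11.1% lower. The median change was -0.24 for the 10 genes and 0.19 for all genes. After trimmed-mean scaling the genome-wide split was 3704 higher and 3787 lower, against 6538 and 2218 as deposited, and CHLI1, CHLD and PORC joined the members called lower, which made 7. This comparison and the one of UV-B with white light share the Col-0 libraries under UV-B, so the values of both are given side by side below.

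HEMA1 (chromosome 1, 21623700 to 21626402 in TAIR10.1, minus strand) encodes the light-regulated glutamyl-tRNA reductase, the first committed and rate-limiting enzyme of 5-aminolevulinic acid synthesis. It had 69.9, 68.7 and 65.1 TPM in uvr8 under UV-B, 144, 153 and 146 TPM in Col-0 under UV-B and 86.2, 80.9 and 78.1 TPM in Col-0 in white light. Every Col-0 library under UV-B lay above every library of the other groups. The log2 change was 0.85 ± 0.08 (SE) for UV-B against white light (limma, adjusted p = 8.1e-06) and -1.11 ± 0.08 for uvr8 against Col-0 under UV-B (limma, adjusted p = 8.35e-07). HEMA2, the isoform known as less responsive to light, averaged 18.1 ± 2.06 TPM in uvr8 under UV-B, 17.5 ± 2.29 TPM in Col-0 under UV-B and 15.3 ± 0.75 TPM in white light. As deposited HEMA2 was not called under UV-B, and after trimmed-mean scaling it was called higher at 0.34 (limma, adjusted p = 0.016). Within a library the ratio of HEMA1 to HEMA2 was 8.55 ± 1.38 in Col-0 under UV-B and 5.37 ± 0.486 in white light. In uvr8 under UV-B the ratio was 3.78 ± 0.399. These ranges did not overlap, and uvr8 was lowest.

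Magnesium chelatase inserts the metal into protoporphyrin IX and consists of the large porphyrin-binding subunit CHLH and the ATPase-type subunits CHLI and CHLD. CHLH (chromosome 5, 4387307 to 4392429, minus strand) had 82.7, 82.5 and 62.5 TPM in uvr8 under UV-B, 279.6, 266 and 268 TPM in Col-0 under UV-B and 108, 99.6 and 81.0 TPM in white light. The Col-0 libraries under UV-B stood far above the others, and the uvr8 libraries overlapped the white-light ones. The log2 change was 1.5 ± 0.18 for UV-B (limma, adjusted p = 4.32e-05) and -1.83 ± 0.18 for uvr8 against Col-0 under UV-B (limma, adjusted p = 8.35e-06).

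GUN4 (chromosome 3, 21948501 to 21949796, minus strand), a porphyrin-binding protein that stimulates the chelatase, had 84.7, 81.1 and 73.5 TPM in uvr8 under UV-B, 236, 204 and 201 TPM in Col-0 under UV-B and 123, 109 and 101 TPM in white light. The 3 groups did not overlap, with uvr8 lowest. Its log2 change was 0.94 ± 0.13 for UV-B (limma, adjusted p = 0.000128) and -1.41 ± 0.13 for uvr8 (limma, adjusted p = 4.9e-06). In the TAIR10.1 annotation GUN4 shares 946 bp, 73% of its exon sequence, with GCN2 (AT3G59410) on the opposite strand, and the library kit is not stated to keep strand, so reads in the shared stretch cannot be told apart. GCN2 stood at 5.59 to 10.6 TPM in the 12 libraries, and its log2 change under UV-B was -0.05 (limma, adjusted p = 0.852). With ABA the change of GCN2 was -0.40 and not called (limma, adjusted p = 0.0806), and the limit on shared reads holds for GUN4 there too.

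The other chelatase subunits showed no change that passed the test under UV-B. CHLI1 (chromosome 4, 10201672 to 10203469, minus strand) had 191, 199 and 209 TPM in uvr8 under UV-B, 215, 259 and 238 TPM in Col-0 under UV-B and 239, 227 and 215 TPM in white light. Its change under UV-B was 0.06, with a 95% interval of -0.16 to 0.28, and in uvr8 it was -0.24, with an interval of -0.46 to -0.03 and an adjusted p of 0.0666 (limma). All 3 uvr8 libraries lay below all 3 Col-0 libraries under UV-B, and CHLI1 was called lower in uvr8 after trimmed-mean scaling at -0.46 (limma, adjusted p = 0.0141) and without Col-0 UV-B replicate 1 at -0.31 (limma, adjusted p = 0.0333). CHLD (chromosome 1, 2696381 to 2701022, plus strand) had 77.4, 80.7 and 62.1 TPM in uvr8 under UV-B, 76.0, 80.6 and 78.1 TPM in Col-0 under UV-B and 81.1, 90.8 and 76.0 TPM in white light, and all groups overlapped. Its interval was -0.32 to 0.17 for UV-B and -0.35 to 0.15 for uvr8 against Col-0 under UV-B, and after trimmed-mean scaling it was called lower in uvr8 at -0.32 (limma, adjusted p = 0.0239).

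In Col-0 under UV-B, CHLH stood in another ratio to the other chelatase subunits than in white light. The ratio of CHLH to CHLI1 in TPM was 0.433, 0.415 and 0.299 in uvr8 under UV-B, 1.3, 1.03 and 1.13 among Col-0 libraries given UV-B, against 0.452, 0.439 and 0.377 in white light. Against CHLD, CHLH averaged 1.03 ± 0.0321 in uvr8 under UV-B, 3.47 ± 0.191 in Col-0 under UV-B and 1.16 ± 0.144 in white light. The ratio of CHLI1 to its second isoform CHLI2 was 4.46 ± 0.256, 4.24 ± 0.233 and 4.24 ± 0.00868 in the same groups, with overlapping ranges. That of CHLI1 to CHLD was 2.77 ± 0.52, 3.03 ± 0.197 and 2.76 ± 0.23, also with overlapping ranges. For 3 libraries against 3, an exact two-sided permutation test cannot go below p = 0.1, and the ratios of CHLH to CHLI1 and to CHLD gave that value for uvr8 against Col-0 under UV-B and for UV-B against white light.

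CHLM (chromosome 4, 12876822 to 12878703, plus strand), the methyltransferase that acts on magnesium protoporphyrin, had 125, 126 and 141 TPM in uvr8 under UV-B, 109, 156 and 135 TPM in Col-0 under UV-B and 146, 135 and 131 TPM in white light. The groups overlapped and the change was -0.06 for UV-B, with a 95% interval of -0.32 to 0.20, and -0.01 for uvr8, with an interval of -0.27 to 0.24. CRD1 (chromosome 3, 21076505 to 21078443, plus strand), the membrane-bound subunit of the cyclase that follows, had 416, 394 and 363 TPM in uvr8 under UV-B, 636, 639 and 614 TPM in Col-0 under UV-B and 468, 449 and 390.1 TPM in white light. The Col-0 libraries under UV-B lay above all others, with a log2 change of 0.53 ± 0.12 for UV-B (limma, adjusted p = 0.00343) and -0.69 ± 0.12 for uvr8 against Col-0 under UV-B (limma, adjusted p = 0.000566).

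CRD1 was the only one of the 10 with a G-box, CACGTG, in the 250 bp before its annotated start, counting both strands. The stretch next to its start that lies outside all annotated exons is shown for that motif, from the TAIR10.1 genome of RefSeq at chr3:21076316-21076504, plus strand, with the G-box in capitals.
CRD1: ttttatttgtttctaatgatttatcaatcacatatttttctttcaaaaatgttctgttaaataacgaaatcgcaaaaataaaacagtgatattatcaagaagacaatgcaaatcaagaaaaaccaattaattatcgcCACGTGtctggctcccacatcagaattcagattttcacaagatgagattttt
The G-box begins 52 bases before the start and holds the shorter ACGT core. Of the same windows before 27443 genes, 6.5% hold a G-box and 44.1% an ACGT core, which 5 of the 10 hold. A match of this kind is a description of the letters only.

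PORA, PORB and PORC encode the light-dependent protochlorophyllide oxidoreductases. PORA (chromosome 5, 21990864 to 21992814, minus strand) had 5.56, 3.69 and 4.60 TPM in uvr8 under UV-B, 0.38, 0.62 and 0.77 TPM in Col-0 under UV-B and 6.65, 5.97 and 5.51 TPM in white light. The Col-0 libraries under UV-B lay below all others, and the uvr8 and white-light libraries overlapped in 1 value. Its log2 change was -2.15 ± 0.15 for UV-B (limma, adjusted p = 5.84e-07) and 1.81 ± 0.15 for uvr8 against Col-0 under UV-B (limma, adjusted p = 2.69e-06). On the log2(TPM + 1) scale the change of so low a transcript is understated: with a pseudocount of 0.1 it was -3.19 for UV-B and 2.80 for uvr8.

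PORB (chromosome 4, 13725546 to 13727440, plus strand), the isoform that stays active in green tissue, had 484, 477 and 399.8 TPM in uvr8 under UV-B, 248, 310.5 and 284 TPM in Col-0 under UV-B and 659, 621 and 522 TPM in white light. The 3 groups did not overlap, with uvr8 between the Col-0 groups. The log2 change was -1.09 ± 0.15 for UV-B (limma, adjusted p = 0.000102) and 0.69 ± 0.15 for uvr8 (limma, adjusted p = 0.00235). PORC (chromosome 1, 907523 to 909650, plus strand), the isoform known from light-grown plants, had 65.2, 66.4 and 50.5 TPM in uvr8 under UV-B, 65.5, 77.8 and 70.7 TPM in Col-0 under UV-B and 66.9, 67.5 and 59.2 TPM in white light. Its groups overlapped, and its 95% interval was -0.17 to 0.45 for UV-B and -0.55 to 0.08 for uvr8, which trimmed-mean scaling turned into a call at -0.45 (limma, adjusted p = 0.0214).

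Summed over the isoforms, POR transcript averaged 519.0 ± 55.6 TPM in uvr8 under UV-B, 352.6 ± 37.7 TPM in Col-0 under UV-B and 671.2 ± 76.1 TPM in white light. PORC made up 11.8%, 12.1% and 11.1% of that sum in uvr8 under UV-B, 20.9%, 20.0% and 19.9% among Col-0 libraries given UV-B, against 9.13%, 9.73% and 10.1% in white light. The share of PORC was highest in Col-0 under UV-B without overlap, and uvr8 under UV-B also lay above white light. Each of these differences in share gave the exact permutation p of 0.1 that is the smallest possible. PORA was 0.166% ± 0.0482 of the sum in Col-0 under UV-B, against 0.902% ± 0.0402 in white light. CRD1, whose product feeds the POR step, stood at 0.756 ± 0.0393 times the POR sum in uvr8 under UV-B, 1.80 ± 0.203 times in Col-0 under UV-B and 0.65 ± 0.0139 times in white light.

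**Figure D2:**
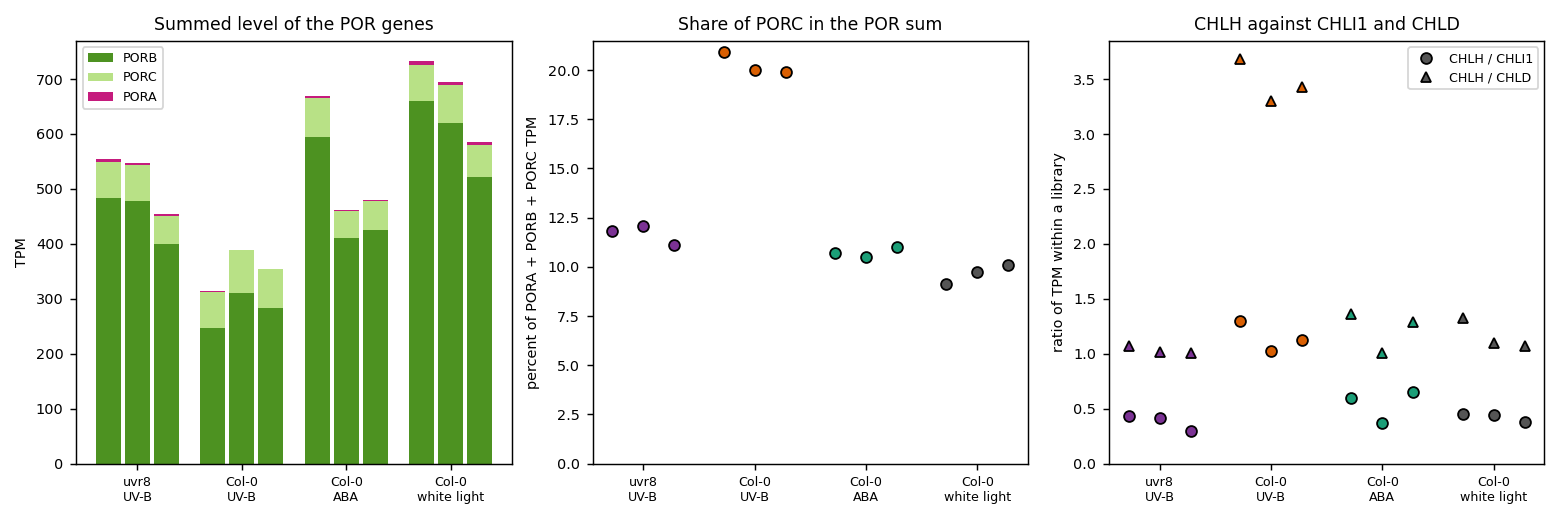
Left, TPM of PORB, PORC and PORA stacked for each library; middle, PORC as a percentage of the summed POR TPM; right, ratio of CHLH TPM to CHLI1 (circles) and CHLD (triangles) within each library, by group from uvr8 under UV-B to Col-0 in white light. In Col-0 under UV-B the POR sum averages 352.6 TPM, against 671.2 TPM in white light, and the PORC share and both CHLH ratios stand above all other libraries.

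Apart from the overlap of GUN4 with GCN2, no member matched another gene at 95% or more over at least 150 bp. PORA and PORB transcripts share 82.7% identity over 1222 bp, and the authors' handling of reads that fit both is not known. Their upstream regions also hold a stretch in common and are shown for it, from the TAIR10.1 genome of RefSeq, PORA at chr5:21992815-21993064, minus strand, and PORB at chr4:13725360-13725545, plus strand, each ending at the base before the annotated start.
PORA: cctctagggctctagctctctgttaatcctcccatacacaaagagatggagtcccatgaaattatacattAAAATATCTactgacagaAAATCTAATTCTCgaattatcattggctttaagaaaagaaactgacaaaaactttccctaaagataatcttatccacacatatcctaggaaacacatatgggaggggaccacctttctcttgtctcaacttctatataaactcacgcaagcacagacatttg
PORB: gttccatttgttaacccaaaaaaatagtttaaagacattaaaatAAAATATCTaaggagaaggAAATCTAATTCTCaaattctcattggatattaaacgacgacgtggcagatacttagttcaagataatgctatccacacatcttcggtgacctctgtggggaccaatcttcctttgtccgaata
Capitals mark the evening element AAAATATCT, a motif known from clock-controlled genes, and after it a run of 13 bases that both share. The evening element begins 180 bases before the start of PORA and 142 bases before that of PORB, and the run follows after 9 bases in PORA and 10 in PORB. Of the windows before 27443 genes, 2.4% hold an evening element on either strand, and 2 of the 10, these ones, do. The run itself was found in 3 windows, and in 2 of them together with the element. In the other 44 pairs among the 10 genes the longest shared run was 7 to 12 bases. The run was picked after the values of these genes were known, and PORA and PORB are related genes, so a shared stretch is a description and nothing about a factor was tested.

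**Figure D3:**
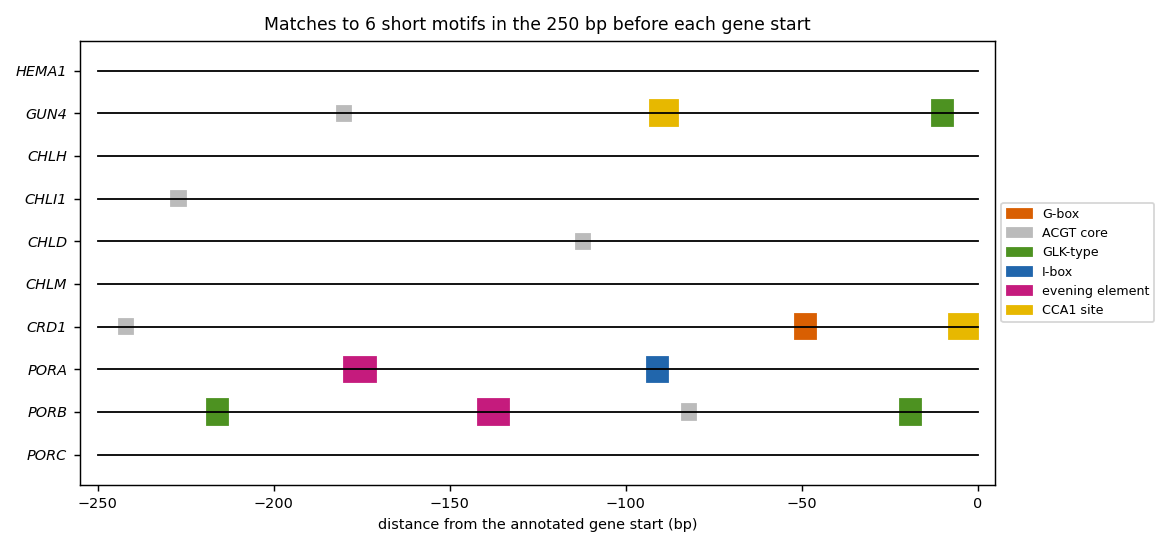
Matches to 6 short motifs, on either strand, in the 250 bp before the annotated start of each gene; the horizontal axis is the distance from the start in bp and each box is a match. PORA and PORB each hold an evening element, CRD1 holds the only G-box, and no match to any of the 6 lies in the windows of HEMA1, CHLH, CHLM and PORC.

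The remaining motifs were found in few of the windows. CCAATC, known from binding by GLK factors, lies in GUN4 and PORB, 2 of 10 beside 10.2% of all windows, and the I-box GATAAG in PORA, 1 of 10 beside 12.3%. The CCA1-binding motif AAAAATCT lies in GUN4 and CRD1, 2 of 10 beside 6.7% of all windows. Exons of neighbouring genes cover 239 of the 250 bp before PORC, 163 before CHLM, 122 before CHLI1, 64 before PORB, 61 before CRD1 and 28 before GUN4. Those 28 bases adjoin the start of GUN4, so its CCAATC match, at 13 bases before the start, lies in an exon of GCN2.

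Set against Col-0 in white light, uvr8 under UV-B showed no change of the 10 genes that passed the test. All 10 fitted changes were negative. They ran from -0.07 for CHLM to -0.47 for GUN4, with a median of -0.22 beside 0.04 for all genes tested. With limma, 0 of 10 passed at an adjusted p under 0.05, beside 5.11% of all genes, 3.83% higher and 1.28% lower. At an unadjusted p under 0.05 there were 4, HEMA1, GUN4, PORA and PORB, beside 19% of all genes. All uvr8 libraries lay below all white-light libraries for HEMA1, GUN4, CHLI1 and PORB, 4 of 10, beside 9.08% of all genes. GUN4 was at -0.47 ± 0.13 (limma, adjusted p = 0.0586), and trimmed-mean scaling called it at -0.52 (limma, adjusted p = 0.0186) together with HEMA1 at -0.31 (limma, adjusted p = 0.0443). That scaling gave 662 genes higher and 417 lower, against 763 and 255 as deposited. Genotype and light differ together in this comparison and cannot be told apart.

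**Figure D4:**
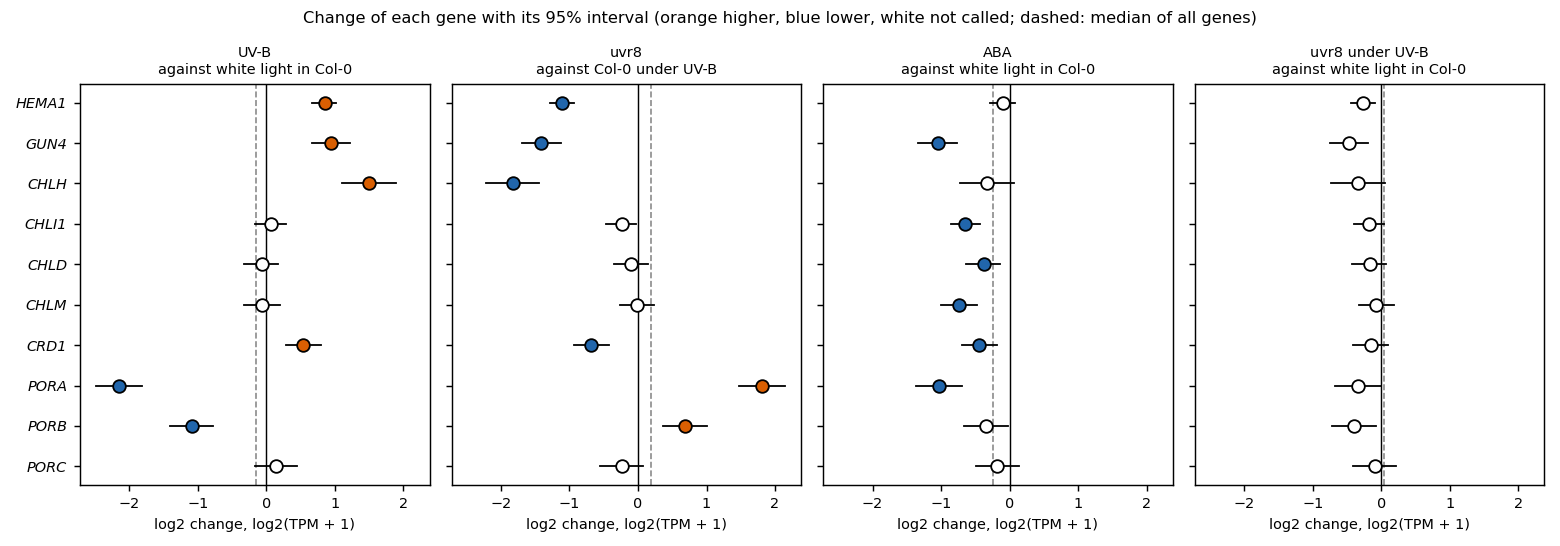
Log2 change of each gene on the log2(TPM + 1) scale with its 95% interval in 4 comparisons; orange is called higher, blue called lower, white not called at an adjusted p under 0.05, and the dashed line is the median of all genes tested. CHLH has the largest rise of the 10 under UV-B at 1.5 and PORA the largest fall at -2.15, and none of the 10 is called for uvr8 under UV-B against white light.

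Seedlings given ABA held less transcript of GUN4, of the chelatase subunits CHLI1 and CHLD, of CHLM and CRD1, and of PORA. PORA fell to 0.405, GUN4 to 0.482, CHLM to 0.597 and CHLI1 to 0.641 of the white-light mean, and CRD1 to 0.744 and CHLD to 0.766. HEMA1, CHLH, PORB and PORC did not pass the test. Of the 10 genes, 6 were lower and 0 higher by limma, beside 54.6% of all genes called, 39.4% lower and 15.2% higher. The median of the 10 was -0.41 and that of all genes -0.24. After trimmed-mean scaling the genome-wide split was 4754 higher and 4307 lower, against 3030 and 7851 as deposited, and 4 members stayed called lower, since CHLD (-0.13) and CRD1 (-0.19) did not pass.

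GUN4 had 62.7, 42.6 and 55.3 TPM with ABA, against 123, 109 and 101 TPM in white light. The groups stood apart, with a log2 change of -1.05 ± 0.13 (limma, adjusted p = 3.22e-05). CHLI1 had 162, 149.7 and 124 TPM with ABA and 239, 227 and 215 TPM in white light, also without overlap, at -0.65 ± 0.10 (limma, adjusted p = 0.000202). CHLM had 90.1, 82.2 and 74.1 TPM with ABA, against 146, 135 and 131 TPM in white light, and its change was -0.74 ± 0.12 (limma, adjusted p = 0.000255). All ABA libraries of these genes lay below all white-light ones. PORA had 2.69, 2.51 and 2.14 TPM with ABA, against 6.65, 5.97 and 5.51 TPM in white light, at -1.03 ± 0.15 (limma, adjusted p = 0.000151).

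CHLD had 71.5, 55.3 and 63.0 TPM with ABA, against 81.1, 90.8 and 76.0 TPM in white light (-0.38 ± 0.11, limma, adjusted p = 0.0134). The groups did not overlap, but the call ended when ABA replicate 2 or white-light replicate 2 was left out, at -0.29 and -0.31. CRD1 had 393, 273 and 306 TPM with ABA, against 468, 449 and 390.1 TPM in white light (-0.44 ± 0.12, limma, adjusted p = 0.00758), and ABA replicate 1 reached the lowest white-light library.

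HEMA1 had 84.9, 67.4 and 76.8 TPM with ABA, against 86.2, 80.9 and 78.1 TPM in white light, and its interval was -0.28 to 0.08. CHLH, which has also been proposed and disputed as an ABA-binding protein, had 97.1, 55.8 and 81.0 TPM with ABA, against 108, 99.6 and 81.0 TPM in white light. Both genes overlapped between the groups, and the interval of CHLH was -0.72 to 0.06. PORB had 594, 411 and 425 TPM with ABA and 659, 621 and 522 TPM in white light, with an interval of -0.67 to -0.03 and an adjusted p of 0.0621 (limma). PORC had 71.7, 48.6 and 52.6 TPM with ABA, against 66.9, 67.5 and 59.2 TPM in white light, with an interval of -0.49 to 0.14. ABA replicate 1 was the highest of the ABA libraries for all 4 of these genes, and without it CHLH (-0.50), PORB (-0.52) and PORC (-0.34) were called lower.

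Guard cell markers moved with ABA as well: FAMA (-0.93), GASA9 (-2.80) and MYB60 (-2.08), 3 of 4 markers, were lower, beside 39.4% of all genes. The fourth, KAT1, averaged 28.2 ± 7.59 TPM with ABA, against 18.2 ± 1.59 TPM in white light (0.57, not called), and was called higher after trimmed-mean scaling at 0.81 (limma, adjusted p = 0.00782). The summed level of the 4 was 41.1 to 57.9 TPM with ABA, against 137 to 141 TPM in white light. Markers of photosynthetic shoot tissue were lower for 3 of 4 with ABA, beside 39.4% of all genes, and for 0 of 4 after trimmed-mean scaling. Their sums were 15457 to 18315 TPM with ABA and 18715 to 22420 TPM in white light. Seed storage transcripts stayed at or under 1.24 TPM apart from CRA1 at 2.86 TPM and CRU3 at 2.57 TPM in ABA replicate 2. Of the root markers, PYK10 was higher with ABA (0.38) and SCR lower (-0.88), the other 3 were at or near 0, and the sum of all 5 was 336.7 to 456 TPM with ABA, against 281 to 313 TPM in white light. The part of these cell types in the ABA results was not tested.

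Set directly against ABA, UV-B left 7 of the 10 genes higher and 2 lower by limma, beside 56% of all genes called, 32.1% higher and 23.9% lower. GUN4 was 3.99-fold and CHLH 3.48-fold higher under UV-B than with ABA, at log2 changes of 1.99 ± 0.13 and 1.82 ± 0.18 (limma, adjusted p = 8.91e-08 and 3.36e-06). CRD1 (0.97), HEMA1 (0.95), CHLI1 (0.71) and CHLM (0.68) were higher too. PORA was lower at -1.12 ± 0.15 and PORB at -0.75 ± 0.15 (limma, adjusted p = 5.78e-05 and 0.000885). PORC at 0.32 was not called (limma, adjusted p = 0.0778), but was called at 0.49 without ABA replicate 1. CHLD was called at 0.31 (limma, adjusted p = 0.0355), and this call ended after trimmed-mean scaling at 0.23, without the mean-variance trend at 0.31, and on leaving out any 1 UV-B library (0.29 to 0.33) or ABA replicate 2 or 3 (0.22 and 0.31). The share of PORC in the POR sum was 20.3% ± 0.525 under UV-B and 10.7% ± 0.231 with ABA.

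The rest of the tetrapyrrole route was covered by lists of its other genes. Of 6 other genes of the chlorophyll branch, 3 were higher under UV-B than in white light, beside 12.3% of all genes: CHLG, the chlorophyll synthase (0.38), DVR, the divinyl reductase (0.34), and CHLP, the geranylgeranyl reductase that supplies the phytol tail (0.33). All 3 were lower in uvr8 than in Col-0 under UV-B, at -0.50, -0.46 and -0.56, beside 11.1% of all genes lower, and after trimmed-mean scaling all 6 were. CHLP averaged 348 ± 26.1 TPM in uvr8 under UV-B, 512 ± 17.9 TPM in Col-0 under UV-B and 407 ± 29.4 TPM in white light. With ABA, 5 of the 6 were lower, beside 39.4% of all genes, led by CHLI2 (-0.63), CHLP (-0.60) and YCF54 (-0.51), a protein of the cyclase. After scaling CHLP and YCF54 stayed called and CHLI2 did not (-0.38).

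Between glutamyl-tRNA and protoporphyrin, 17 genes were listed beside HEMA1 and 15 were tested. Under UV-B 0 were higher and 1, HEMB1, was lower (-0.19), beside 12.3% and 27.8% of all genes, with a median of -0.02, and after scaling 3 were higher and 0 lower. In uvr8 against Col-0 under UV-B, 1 was lower, beside 11.1% of all genes: GBP, which encodes a glutamyl-tRNA reductase binding protein (-0.31). After scaling 6 were lower. With ABA 12 of 15 were lower, beside 39.4% of all genes, and 7 after scaling, among them GSA2 (-0.72), an aminotransferase that makes 5-aminolevulinic acid, FLU (-0.68), the feedback inhibitor of glutamyl-tRNA reductase, and HEMG2 (-0.68). HEMA2 was not called with ABA, at 0.18 with a 95% interval of -0.09 to 0.45, and was called higher after scaling at 0.42 (limma, adjusted p = 0.00394).

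On the heme side, FC1 and FC2, the ferrochelatases, rose under UV-B by 0.95 ± 0.08 and 0.60 ± 0.10 (limma, adjusted p = 1.54e-06 and 0.000561), and both were lower in uvr8, at -0.59 and -0.55. FC1 had 72.5, 72.8 and 65.7 TPM in uvr8 under UV-B, 112, 104 and 104 TPM in Col-0 under UV-B, 84.8, 82.6 and 93.9 TPM with ABA and 51.6, 58.7 and 54.5 TPM in white light. Each treated group lay above white light for FC1, uvr8 under UV-B included (0.35, limma, adjusted p = 0.0204). Of the 8 heme, bilin and siroheme genes tested, 2 were higher and 3 lower under UV-B, beside 12.3% and 27.8% of all genes, and 3 higher and 0 lower after scaling. HY2, which makes the phytochrome chromophore, was the one gained (0.37). HO3, a heme oxygenase, was lower under UV-B (-0.58; -0.43 and not called after scaling) and higher in uvr8 than in Col-0 (0.78). With ABA 1 was higher, FC1, and 4 lower, beside 15.2% and 39.4% of all genes, led by UPM1 (-1.18) and SIRB (-0.98), both enzymes of siroheme synthesis.

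**Figure D5:**
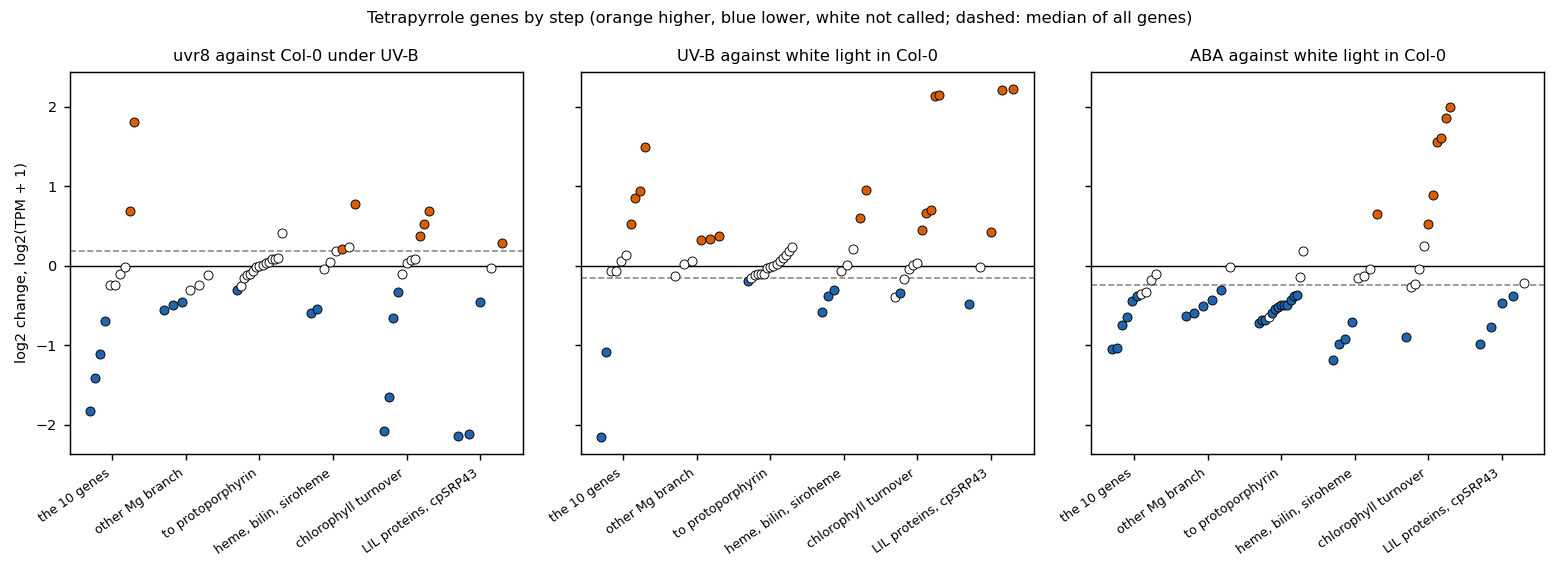
Log2 change on the log2(TPM + 1) scale of each tested gene of the pathway, by list, in uvr8 against Col-0 under UV-B, in UV-B against white light and in ABA against white light; orange is called higher, blue called lower, white not called, and the dashed line is the median of all genes tested. The 10 genes spread from -2.15 to 1.5 under UV-B, where the 15 tested genes before protoporphyrin lie between -0.19 and 0.24, and ABA has called genes below 0 in every list and the highest ones among chlorophyll turnover.

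Light regulators of these genes moved in both directions under UV-B: of 15 listed, 7 were higher and 5 lower, beside 12.3% and 27.8% of all genes, and 7 and 4 after trimmed-mean scaling. HYH, a bZIP factor that acts with HY5, averaged 52.5 ± 9.11 TPM in uvr8 under UV-B, 302 ± 20.8 TPM in Col-0 under UV-B and 22.5 ± 6.67 TPM in white light. HY5 was listed at 83.3, 101 and 92.6 TPM in Col-0 under UV-B, and at 0, 0.16 and 0 TPM in white light, so no fold is given. The GATA factors CGA1 (3.24) and GNC (0.95), known to favour chlorophyll accumulation, rose, and so did GLK2 (0.68). CCA1 (1.29) rose to 4.23 ± 1.11 TPM, against 1.14 ± 0.44 TPM in white light. LHY (0.89), counted among the 7, was at 2.1 ± 0.21 TPM under UV-B and 0.68 ± 0.06 TPM in white light. LHY reached 1 TPM only in Col-0 under UV-B. The filter kept it through the group where it was high, so its calls are no independent support. GLK1, which with GLK2 activates chlorophyll and antenna genes, was at 99.6 ± 9.37 TPM under UV-B and 113 ± 10.0 TPM in white light (-0.18, limma, adjusted p = 0.396). The phytochrome-interacting factors, known as repressors of the pathway in the dark, were lower: PIF4 (-1.61), PIF3 (-1.17), PIF5 (-1.05) and PIF1 (-0.82). FHY3, an activator of HEMB1, was lower (-0.34) and FAR1 (-0.18) and GUN1 (-0.06) were not called, and FHY3 lost its call after scaling.

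In uvr8 against Col-0 under UV-B, 5 of these 15 regulators were higher and 7 lower, beside 32.8% and 11.1% of all genes. CGA1 was at -3.42, HYH at -2.51, GNC at -1.29, CCA1 at -1.12, GLK2 at -0.96 and LHY at -0.77, and HY5 was listed at 0, 0.64 and 4.08 TPM in uvr8. LHY averaged 0.82 ± 0.13 TPM in uvr8 and had passed the filter only through Col-0 under UV-B. PIF3 (1.17), PIF4 (1.12), PIF5 (0.85), PIF1 (0.67) and FHY3 (0.43) were higher in uvr8. For uvr8 under UV-B against white light 2 were called, HYH higher (1.21) and PIF4 lower (-0.49), beside 5.11% of all genes. With ABA 4 were higher and 7 lower than in white light, beside 15.2% and 39.4% of all genes, and 4 and 4 after scaling. HY5 was among the higher ones, listed at 3.84, 2.89 and 3.11 TPM with ABA, against 0, 0.16 and 0 TPM in white light. GLK1 fell to 43.8 ± 11.4 TPM with ABA, against 113 ± 10.0 TPM in white light (-1.38, limma, adjusted p = 2.23e-05), with CGA1 (-1.28), GNC (-1.21) and PIF1 (-0.80) lower as well, while PIF3 (1.05), CCA1 (0.66) and PIF4 (0.36) were higher. CGA1 was near the floor with ABA, at 1.11 ± 0.51 TPM. GLK2 averaged 34.7 ± 3.45 TPM with ABA and 51.5 ± 5.05 TPM in white light. After scaling GLK2 was not called (-0.31, limma, adjusted p = 0.132).

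Genes whose pattern was most like that of 4 of the members were found by Pearson correlation of log2(TPM + 1) over the 12 libraries, among about 15100 genes with a mean of at least 5 TPM. The libraries fall into 4 groups and share the treatments, so the values only describe the pattern and carry no test. For HEMA1 they were NPF5.1 (0.993), FAO3 (0.989) and MSRB6 (0.984), and for CHLH PREP1 (0.987), RPT2 (0.986) and UGT90A1 (0.986). For PORA they were AT1G49130 (0.981), LAX1 (0.979) and TUBB3 (0.977), and for PORC, whose groups overlapped, TLP18.3 (0.943), SNG1 (0.901) and LHCA6 (0.898). MSRB6 averaged 18.5 TPM in uvr8 under UV-B, 532 TPM in Col-0 under UV-B, 23.6 TPM with ABA and 29.2 TPM in white light. AT1G49130 averaged 10.1 TPM in uvr8 under UV-B, 1.82 TPM in Col-0 under UV-B, 5.42 TPM with ABA and 12.5 TPM in white light.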

How the data were processed

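RNA-seq tables were used as deposited: the authors deposited 1 table per library with TPM, a transcript abundance scaled to length and library total, for 32833 loci, summing to 998197.5 to 998680.8 per library. The genome build is TAIR10, per the submitters' processing notes; the sources used here do not name the aligner, the counter or the strand setting. TPM keeps no depth, so no count model was run and no counting interval is given.

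The 12 libraries were grouped by their titles, and their replicates were prepared separately. After removal of loci that reached 1 TPM in fewer than 3 libraries, 19922 remained. A linear model of 4 group means on log2(TPM + 1) was fitted across them (limma 3.58.1, R 4.3.3) with its variance prior following mean expression, and p-values were adjusted by Benjamini-Hochberg over all loci, with 0.05 as threshold. Changes are in log2 units. The fit was tested on simulated data. Shares and ratios were compared by exact two-sided permutation (numpy 2.4.6), and near copies were looked for with BLAST 2.17.0. Sequences and positions come from TAIR10.1 of RefSeq. Motifs were searched on both strands in the 250 bp before each gene's start.

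The members and lists were chosen with earlier results of these data known. Named genes were the members, label checks, all regulators, up to 3 called genes of largest change per list and comparison, and the 3 most alike genes for 4 members. HEMA2, CHLI2 and GCN2 were named beside their partners, and further genes of the turnover and assembly lists were named after their values were seen. Alternatives were trimmed-mean (TMM-style) scaling, other filters and pseudocount, no trend, pairwise fits, a replicate block, a minimum change, removal of organelle-encoded loci and leaving out each library.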

Additional observations from a re-analysis of the deposited data

How the results depend on the processing

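Of 700 recomputed member changes, 664 kept direction and side of the threshold; 13 gained and 11 lost a call, and 12 changed sign, none of them called. Under a minimum log2 change of 1, calls fell to 1309 genes and 3 members (UV-B against white light) and 2245 and 2 (ABA). For UV-B against ABA they fell to 3154 and 3. In uvr8 against Col-0 under UV-B 1504 genes stayed called, and among the members CHLH, GUN4, HEMA1 and PORA. Between uvr8 under UV-B and white light 190 genes and no member stayed called. Members called between uvr8 under UV-B and white light numbered 2 after trimmed-mean scaling and 1 in the pairwise fit, where GUN4 was called. Leaving out 1 library gave 426 to 765 genes called there, against 1018, and 0 members each time. The cause was not tested.

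Signs turned after trimmed-mean scaling for CHLD (0.10) and CHLM (0.12) under UV-B and for HEMA1 (0.15) and PORC (0.07) with ABA. On leaving out each library in turn, some values also turned: CHLM ranged from -0.18 to 0.08 and CHLI1 from 0 to 0.13 under UV-B against white light, CHLM from -0.15 to 0.11 and CHLD from -0.17 to 0.01 in uvr8 against Col-0 under UV-B, and PORC from -0.16 to 0.03 in uvr8 under UV-B against white light. The difference in PORA share there, -0.00637 percentage points, ranged from -0.064 to 0.105 when each library was left out.

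Same-numbered libraries did not pair: their deviations correlated at -0.07 to 0.26, and in no comparison were all 3 pairs over 0.1. With the replicate block, 1 member, GUN4 at -0.47 (limma, adjusted p = 0.0271), was called between uvr8 under UV-B and white light, and 7656 genes were called for UV-B against white light, against 7994. It changed no other member's call. Depth is unknown, so low values such as those of PORA carry an error that cannot be set.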

Other observations

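Chlorophyll turnover genes, which no comparison above described, moved under both treatments. With ABA 6 of 11 were higher and 1 lower than in white light, beside 15.2% and 39.4% of all genes, and 7 and 1 after trimmed-mean scaling. NYE1 and NYE2, the magnesium dechelatases known as stay-green proteins, averaged 41.0 ± 3.11 and 10.1 ± 1.42 TPM with ABA, against 9.49 ± 1.27 and 2.12 ± 0.89 TPM in white light (2.00 and 1.86). NYC1, a chlorophyll b reductase, averaged 271 ± 44.7 TPM with ABA, against 87.5 ± 4.41 TPM in white light (1.61), and PAO (1.56), PPH (0.89) and NOL (0.53) were also higher. These are enzymes of chlorophyll breakdown known from leaf senescence. CLH1, a chlorophyllase, was lower with ABA (-0.90).

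Under UV-B 5 of the 11 were higher than in white light and 1 lower, beside 12.3% and 27.8% of all genes, and 5 and 0 after trimmed-mean scaling. SGRL, a stay-green-like protein, averaged 22.1 ± 0.68 TPM in uvr8 under UV-B, 96.7 ± 6.20 TPM in Col-0 under UV-B and 21.3 ± 2.50 TPM in white light, and its change under UV-B was 2.13 (limma, adjusted p = 4.25e-08). CLH2, the other chlorophyllase, was at 2.15, but shares 841 bp of its 1177 bp of exon with a gene on the opposite strand. RCCR (0.70), NYC1 (0.66) and NYE1 (0.45) were higher. PPH was lower (-0.34) and lost its call after trimmed-mean scaling (-0.17).

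Of 5 partner proteins of chlorophyll synthesis and assembly, 3 were higher and 1 lower under UV-B than in white light, and the same numbers after trimmed-mean scaling, beside 12.3% and 27.8% of all genes. OHP1 and OHP2, one-helix proteins of photosystem II assembly, averaged 68.8 ± 4.93 and 82.8 ± 12.1 TPM in uvr8 under UV-B, 309 ± 43.6 and 361 ± 25.7 TPM in Col-0 under UV-B and 65.0 ± 1.58 and 77.5 ± 5.18 TPM in white light. Their changes under UV-B were 2.22 and 2.21. LIL3:1, a protein that binds POR and geranylgeranyl reductase, rose by 0.43, and its copy LIL3:2 was at -0.02. A chaperone of pathway enzymes, cpSRP43, was lower (-0.48). Opposite-strand genes share 116 of 526 bp of OHP1 exon, 101 and 122 of 824 bp of OHP2 and 457 of 1620 bp of LIL3:1. In uvr8 against Col-0 under UV-B, OHP1 (-2.14), OHP2 (-2.12) and LIL3:1 (-0.45) were lower and cpSRP43 higher (0.28), beside 11.1% of all genes lower and 32.8% higher, and cpSRP43 lost its call after scaling (0.06). With ABA cpSRP43 (-0.98), LIL3:1 (-0.77), LIL3:2 (-0.47) and OHP2 (-0.38) were lower, beside 39.4% of all genes, and LIL3:2 (-0.22) and OHP2 (-0.13) lost their calls after scaling.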
